A study of Mus musculus with 3 samples.

Results

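The kinetochore, spindle and condensin genes examined here are 46 genes whose products attach, align, compact and separate chromosomes when a cell divides. They were chosen by name, as every probe set annotated to 1 gene symbol alone where that symbol was on the list of 46. All 46 had at least 1 such probe set, out of 18193 genes named in this way on the array, and all 46 were bright enough to be tested among 12721 genes. They had 106 probe sets, of which 88 passed the filter on low intensity. The list was drawn up with earlier results of these data known. Shares of all genes given beside its counts therefore describe it and do not test it.

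In mitosis the centromere is marked by the histone variant CENP-A, on which the kinetochore is built. The NDC80 complex at its outer face grips spindle microtubules, the checkpoint kinases delay anaphase until every kinetochore is attached, and the chromosomal passenger complex corrects faulty attachments. Condensin and topoisomerase II compact the chromosomes, kinesins build and slide the spindle, and centralspindlin and its partners then direct cell cleavage. Most of these genes are transcribed late in the cell cycle, so in a bulk sample of lymphocytes their RNA is high where many cells are cycling.

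Follicular regulatory T (Tfr) cells, regulatory T cells of B cell follicles that express Foxp3, were sorted from spleens of C57BL/6 mice at day 8 after OVA immunization. The WT group was 1 array from a pool of 4 wild type mice. The Rptor-null group was 2 arrays, each from a pool of 8 CD4-Cre Rptor fl/fl mice (genotype Rptor-/-), called Rptor-null 1 and Rptor-null 2 below. Rptor encodes raptor, a subunit of the kinase complex mTORC1, and CD4-Cre deletes in the whole T lineage and not in Tfr cells alone. All groups were immunized, and neither the age of the mice nor whether the wild type mice carried Cre was given in the sources used here. Cells had been lineage-depleted and sorted on CD4, CD44, GITR, CD25 and CXCR5.

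Values are scaled intensities of Affymetrix probe sets, given for the brightest probe set of a gene unless stated. Differences are Rptor-null minus WT on the log2(intensity + 16) scale, which understates changes of dim genes, and SE is that of the limma fit. A gene is called lower or higher at a Benjamini-Hochberg adjusted p under 0.05. With 1 WT array, WT has no replicate error: the fit takes its spread from the 2 Rptor-null arrays and assumes that the WT array varies like them. The number of arrays limits the precision. The p-values measure the spread between the 2 Rptor-null pools.

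The arrays differed in ways beyond these genes. Median intensity was 52.8 in WT, then 55.0 and 54.9 in Rptor-null 1 and 2. The ratio of 3' to 5' signal of beta-actin was 1.40 in WT, then 2.65 and 2.87 in Rptor-null 1 and 2. That of Gapdh was 1.11 in WT, then 1.94 and 2.58. Rptor read 365 in WT, then 353 and 412 in Rptor-null 1 and 2, by a probe set whose place relative to the deleted part is not known here, so it checks nothing. Of the defining markers of the sorted cells, Foxp3 read 752 in WT, then 587 and 423, Cxcr5 713 in WT, then 374 and 392, and Cd4 696 in WT, then 579 and 587. Tnfrsf18, which encodes GITR, read 3837 in WT, then 1549 and 1453, and Il2ra, which encodes CD25, 464 in WT, then 366 and 348. All of these were far above the intensity of 35.0 under which probe sets were left out. Markers of other cells were bright too, among them Lyz2 of macrophages, at 14972 in WT, then 16033 and 17432.

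Of the 46 genes, 36 fell in the Rptor-null pools, 0 rose and 10 did not pass the test (limma; 0 were higher and 43 lower at an unadjusted p under 0.05). Over all genes tested, 11.1% were called lower and 3.93% higher. The largest decreases by the level kept in both arrays were those of Bub1, a checkpoint kinase, Birc5, which encodes survivin, Cdca8, which encodes borealin, and Nusap1, a microtubule bundling protein. The median log2 difference of the 46 genes was -0.80, against -0.060 over all genes tested, and it was -0.72 in Rptor-null 1 and -0.86 in Rptor-null 2. Foxm1, a transcription factor of mitotic genes, was the 1 member that did not read below WT in both Rptor-null arrays, while the other 45 did (48.7% of all genes tested). A decrease of at least 2-fold in both arrays was seen for 8 members (0.597% of all genes tested): Birc5, Cdca8, Bub1, Ttk, Nuf2, Kif22, Nusap1 and Cdca3. In bulk RNA, fewer cycling cells, less of this RNA in each cell and a lower share of T cell RNA in the sample cannot be told apart. The difference between arrays in the ratio of 3' to 5' signal also goes with genotype, and its part was not tested.

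Scaling on T cell markers apart, calls for 19 of the 36 members held under all 9 other settings of the processing that allow a test. Those of Cenph, Nuf2 and Kif20a held under the 8 of these settings that tested them. One limit is the level of T cell RNA itself: 5 of 9 measured T cell markers were lower, with a mean log2 difference of -0.51 over the 9. When the arrays were scaled on those 9 markers, a setting chosen after seeing the data, 18 members were lower (1.88% of all genes tested) and 2, Smc4 and Foxm1, were higher (62.7% of all genes tested). Of the members whose calls held under the other settings, Bub1b, Cenph, Spc24, Kif20a, Ect2 and Cdca5 did not pass under this scaling.

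**Figure D1:**
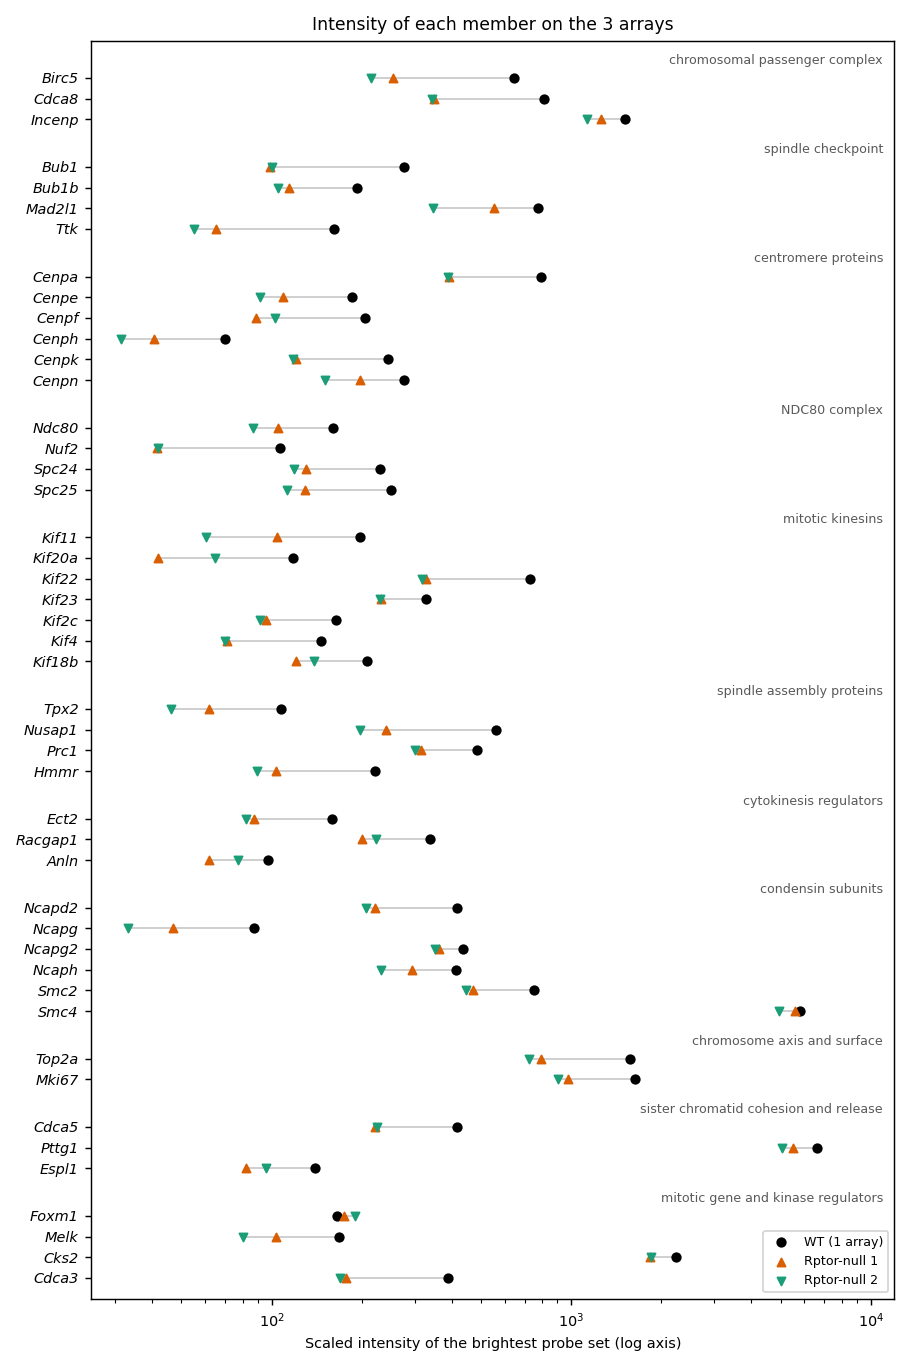
Scaled intensity of the brightest probe set of each of the 46 genes (log axis), grouped by role, with 1 point per array: WT as black circles, Rptor-null 1 as orange upward triangles and Rptor-null 2 as green downward triangles. For 45 of the 46 genes both Rptor-null points lie to the left of WT, and for Foxm1 both lie to the right; after scaling on T cell markers 34 of the 46 stay below WT in both arrays, against 7.53% of all genes tested.

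Promoters of the members, whether or not they fell, were inspected for 3 short motifs known from cell cycle genes. The cell cycle genes homology region (CHR, searched as TTTGAA or TTCGAA) is bound by the DREAM and MuvB complexes, CCAAT by the factor NF-Y, and the E2F element (searched as TTTGGCGC, TTTCCCGC or TTTCGCGC) by E2F proteins; each was searched on both strands. RefSeq promoter windows of 300 bases on GRCm38.p6, from 250 bases before to 50 after the start, were matched by symbol for 40 of the 46 genes. A gene with several windows counted once if any window held the motif. A CHR motif was found in 29 of 40 members (72.5%), against 1636 of 10209 other genes tested and 21.7% of all 27025 genes with a window. CCAAT was found in 28 members (70.0%), against 42.2% and 41.1%. The E2F element was found in 3 members (7.5%), Ncapd2, Ncapg and Ncapg2, against 3.9% and 2.1%. Among the 33 matched members that fell, 24 held a CHR motif and 24 held CCAAT. Of the matched members that did not pass, Cenpn, Kif23, Anln, Ncapg2 and Espl1 held a CHR motif, and Mad2l1 and Cks2 did not. Cenpn, Kif23, Espl1 and Cks2 held CCAAT, and Mad2l1, Anln and Ncapg2 did not. A match describes the letters and does not show that a factor binds. Incenp, Spc24, Kif20a, Tpx2, Smc4 and Foxm1 had no matched window.

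Birc5 and Nusap1 had a larger decrease kept in both arrays than Ttk and Kif22. Their windows held none of the motifs searched and are not shown. The 4 windows below are those of the members with a CHR motif and the largest decrease kept in both arrays. Each runs 5′ to 3′ on the gene's strand, and capitals mark CHR and CCAAT matches on either strand (the reverse of TTTGAA reads TTCAAA, and that of CCAAT reads ATTGG). Bub1 lies at chr2:127831810-127832109 (minus strand), Cdca8 at chr4:124936868-124937167 (minus strand), Ttk at chr9:83834439-83834738 (plus strand) and Kif22 at chr7:127042371-127042670 (minus strand), all on GRCm38.p6.
Bub1: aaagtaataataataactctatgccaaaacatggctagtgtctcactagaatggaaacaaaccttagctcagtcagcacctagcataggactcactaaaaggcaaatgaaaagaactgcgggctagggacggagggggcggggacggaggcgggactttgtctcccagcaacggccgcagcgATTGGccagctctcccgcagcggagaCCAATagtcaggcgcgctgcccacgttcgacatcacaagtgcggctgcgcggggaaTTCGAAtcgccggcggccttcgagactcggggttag
Cdca8: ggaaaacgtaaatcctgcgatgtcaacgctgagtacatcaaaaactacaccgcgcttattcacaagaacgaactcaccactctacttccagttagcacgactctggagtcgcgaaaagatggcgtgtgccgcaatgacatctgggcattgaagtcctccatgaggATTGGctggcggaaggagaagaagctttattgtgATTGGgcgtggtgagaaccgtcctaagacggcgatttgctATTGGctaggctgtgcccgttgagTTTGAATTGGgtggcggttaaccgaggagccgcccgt
Ttk: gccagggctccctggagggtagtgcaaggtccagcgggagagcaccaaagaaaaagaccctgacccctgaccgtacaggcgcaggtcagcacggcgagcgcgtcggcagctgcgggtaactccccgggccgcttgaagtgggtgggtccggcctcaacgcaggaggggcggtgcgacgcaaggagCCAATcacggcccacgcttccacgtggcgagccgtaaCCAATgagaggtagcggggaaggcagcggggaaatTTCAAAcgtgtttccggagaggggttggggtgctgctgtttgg
Kif22: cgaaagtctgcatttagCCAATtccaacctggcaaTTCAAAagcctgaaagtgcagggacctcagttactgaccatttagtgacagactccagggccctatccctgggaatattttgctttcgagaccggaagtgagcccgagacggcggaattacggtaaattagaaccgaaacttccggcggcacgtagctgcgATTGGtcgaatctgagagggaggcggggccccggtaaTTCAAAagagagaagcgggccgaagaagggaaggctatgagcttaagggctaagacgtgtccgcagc

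In Bub1 the CCAAT matches begin 68 and 42 bases before the annotated start, and the CHR match begins at base 15 after it. In Ttk the CCAAT matches begin 65 and 28 bases before the start, and the CHR match at base 8 after it. In Cdca8 CCAAT matches begin 85, 51 and 11 bases before the start, and the CHR match at base 14 after it runs into another CCAAT match that begins at base 19. Kif22 has a CCAAT match 54 bases before the start and a CHR match 17 bases before it, and a further match of each kind farther away, 233 and 215 bases before it. In all 4 windows, which were chosen for holding a CHR match, a CCAAT match precedes a CHR match that lies close to the start. This order was not counted in the windows of other genes.

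The chromosomal passenger complex couples the kinase Aurora B to the centromere. Birc5, its survivin subunit, read 645 in WT, then 254 and 215 in Rptor-null 1 and 2, a log2 difference of -1.40 ± 0.15 (SE; adjusted p = 0.00402). Both Rptor-null values were under the WT value by more than they differed from each other. Cdca8, its borealin subunit, read 812 in WT, then 348 and 343 in Rptor-null 1 and 2, or -1.20 ± 0.12 (adjusted p = 0.00402), and its other 2 kept probe sets were lower too. Incenp, the scaffold subunit, read 1516 in WT, then 1255 and 1126, a difference of -0.35 ± 0.11 that did not pass (adjusted p = 0.0751). A second Incenp probe set, with a WT intensity of 529, read 265 and 281 in the Rptor-null arrays. With probe sets that can match several transcripts left out, this probe set stood for Incenp, and the gene passed (adjusted p = 0.00703). The dimmer kept probe sets of Incenp had log2 differences of -0.067, -0.14 and -0.11. Incenp did not pass with the mean of its 5 kept probe sets (adjusted p = 0.15). Nor did it after quantile normalization (adjusted p = 0.272) or without a variance trend (adjusted p = 0.164). The passenger kinase itself, Aurkb, which is not among the 46, read 133 in WT, then 62.0 and 54.6, a decrease of 2.01-fold on the log2(intensity + 16) scale (adjusted p = 0.0096).

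In the spindle checkpoint, which holds anaphase until chromosomes are attached, 3 of 4 members fell. Bub1, a kinase at the unattached kinetochore, read 277 in WT, then 99.0 and 99.9 in Rptor-null 1 and 2 (-1.35 ± 0.15, adjusted p = 0.0044). Ttk, the kinase that starts checkpoint signalling, read 162 in WT, then 65.1 and 55.2 (-1.23 ± 0.17, adjusted p = 0.00596). Bub1b, the inhibitor BubR1, read 193 in WT, then 114 and 105. Mad2l1, which encodes the anaphase inhibitor MAD2, read 772 in WT, then 552 and 345. Its log2 difference of -0.80 ± 0.24 was as large as that of the typical member, but the Rptor-null arrays lay far apart and it did not pass (adjusted p = 0.0641). It passed with the 60th percentile filter (adjusted p = 0.0323) and after median centring (adjusted p = 0.0026). It did not pass after quantile normalization (adjusted p = 0.161) or without a variance trend (adjusted p = 0.119).

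Of the 6 centromere proteins, 5 fell. Cenpa, the centromeric histone, read 792 in WT, then 390 and 389 in Rptor-null 1 and 2 (-0.99 ± 0.12, adjusted p = 0.00462). Cenpk, of the constitutive centromere network, read 244 in WT, then 121 and 118 (-0.94 ± 0.15, adjusted p = 0.00982). In both genes the Rptor-null arrays nearly coincided. Cenpf, a protein of the kinetochore corona, read 204 in WT, then 88.9 and 102, and Cenpe, a kinetochore motor, read 185 in WT, then 109 and 91.6. Cenph read 70.0 in WT, then 40.5 and 31.4. Cenpn, which reads the CENP-A nucleosome, was at 277 in WT, then 198 and 151 (-0.63 ± 0.19, adjusted p = 0.061) and did not pass. Cenpn passed with the mean of its probe sets (adjusted p = 0.0379), and the call of Cenpe was lost there (adjusted p = 0.0558). After quantile normalization Cenpn did not pass (adjusted p = 0.133).

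All 4 subunits of the NDC80 complex fell. Nuf2 read 107 in WT, then 41.3 and 41.8 in Rptor-null 1 and 2 (-1.09 ± 0.15, adjusted p = 0.00636). Spc25 read 250 in WT, then 130 and 113 (-0.95 ± 0.16, adjusted p = 0.0111). Spc24, its partner at the inner end of the complex, read 231 in WT, then 130 and 119. Ndc80, the microtubule-binding subunit, read 160 in WT, then 105 and 86.7, and its call was lost after quantile normalization (adjusted p = 0.0791). The WT value lay above both Rptor-null values for each subunit.

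Among the mitotic kinesins, motors that move along or dismantle spindle microtubules, 6 of 7 fell. Kif22, which pushes chromosome arms outward, read 730 in WT, then 328 and 318 in Rptor-null 1 and 2 (-1.14 ± 0.12, adjusted p = 0.00402), and its 3 kept probe sets were all below WT in both arrays. Kif4, a chromosome-bound motor, read 146 in WT, then 70.8 and 69.8 (-0.91 ± 0.16, adjusted p = 0.0116). Kif11, which separates the spindle poles, read 197 in WT, then 105 and 60.2, so that the Rptor-null arrays differed clearly from each other. Kif20a, a motor of cytokinesis, read 118 in WT, then 41.7 and 64.7. Kif2c, which takes microtubules apart at centromeres, read 164 in WT, then 95.6 and 91.4, and Kif18b read 208 in WT, then 120 and 138. Kif23, the motor of centralspindlin, read 329 in WT, then 232 and 230 (-0.48 ± 0.14) and did not pass (adjusted p = 0.0584). The calls of Kif11 and Kif18b were lost after quantile normalization (adjusted p = 0.0612 and 0.0804) and those of Kif11 and Kif2c with the mean of probe sets (adjusted p = 0.0532 and 0.108).

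Kinesins of interphase transport served as a comparison from the same motor superfamily. Of 13 tested, 0 were lower and 0 higher (limma; 0 in either direction at an unadjusted p under 0.05), and their median log2 difference was -0.19. Over all genes tested, 11.1% were called lower and 3.93% higher. Small decreases were common, as 11 of the 13 read below WT in both Rptor-null arrays, against 48.7% of all genes tested. Kif5c read 140 in WT, then 111 and 103, and Kif3c 382 in WT, then 461 and 478, the latter with a difference that did not pass (adjusted p = 0.169). The medians of the mitotic and the interphase kinesins were -0.91 and -0.19, and the difference between these lists was not tested.

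All 4 spindle assembly proteins fell. Nusap1, which bundles microtubules near chromosomes, read 562 in WT, then 241 and 197 in Rptor-null 1 and 2 (-1.31 ± 0.16, adjusted p = 0.00462). Hmmr, a spindle protein and hyaluronan receptor, read 222 in WT, then 103 and 89.1 (-1.09 ± 0.17, adjusted p = 0.00804). Prc1, which bundles the central spindle, read 486 in WT, then 315 and 302. Tpx2, the activator of Aurora A, read 107 in WT, then 62.0 and 46.3, but its 3 kept probe sets did not share a direction. A dimmer Tpx2 probe set read 33.7 in WT, then 60.6 and 41.9, and with its 3 probe sets averaged the gene no longer passed (adjusted p = 0.641). The call of Prc1 was lost after quantile normalization (adjusted p = 0.0551).

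Of the 3 cytokinesis regulators, 2 fell. Ect2, the exchange factor that activates RhoA at the cleavage plane, read 159 in WT, then 87.4 and 81.9 in Rptor-null 1 and 2 (-0.80 ± 0.16, adjusted p = 0.0178). Racgap1, of centralspindlin, read 338 in WT, then 200 and 223 (-0.64 ± 0.15, adjusted p = 0.0281). Racgap1 no longer passed after quantile normalization (adjusted p = 0.067). Anln, the cleavage furrow scaffold anillin, read 97.5 in WT, then 61.8 and 77.0 (-0.42 ± 0.18, adjusted p = 0.163) and did not pass. The WT value was the highest for each of the 3 genes.

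Condensin I and condensin II share the subunits Smc2 and Smc4 and differ in the other subunits. The 3 subunits of condensin I were all lower. Ncapd2 read 417 in WT, then 221 and 206 in Rptor-null 1 and 2 (-0.92 ± 0.14, adjusted p = 0.00825). Ncapg read 87.1 in WT, then 46.7 and 33.2 (-0.89 ± 0.19, adjusted p = 0.0213). Ncaph read 413 in WT, then 293 and 233. Its call held under only 4 of the 9 other settings and was lost, among others, after quantile normalization (adjusted p = 0.119). Of condensin II, Ncapg2 read 435 in WT, then 362 and 351 (-0.28 ± 0.13, adjusted p = 0.197) and did not pass. Neither of its partners, Ncapd3 (411 in WT, 318 and 354) and Ncaph2 (1370 in WT, 1066 and 1188), passed the test (adjusted p = 0.219 and 0.139). Whether the 2 complexes differ in their decrease was not tested.

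Of the shared ATPases, Smc2 was called lower and Smc4 was not, and a difference between these genes was not tested. Smc2 read 753 in WT, then 469 and 447 in Rptor-null 1 and 2 and fell, but its 5 kept probe sets ranged from -0.71 to 0.13. With their mean the call was lost (adjusted p = 0.219), as was that of Ncapg (adjusted p = 0.243). Smc4 read 5790 in WT, then 5586 and 4961 (-0.14 ± 0.10, adjusted p = 0.399), with other probe sets at 4613 in WT, then 5450 and 4551, and at 2084 in WT, then 2622 and 1604. The Smc4 arrays thus overlapped in all but the brightest probe set.

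Both genes of the chromosome axis and surface fell. Top2a, topoisomerase II alpha, read 1568 in WT, then 794 and 723 in Rptor-null 1 and 2 (-1.03 ± 0.11, adjusted p = 0.00402). Mki67, which coats mitotic chromosomes and is the usual marker of cycling cells, read 1632 in WT, then 979 and 904 (-0.78 ± 0.11, adjusted p = 0.00573). Scaled on T cell markers, the differences of Top2a and Mki67 shrank to -0.53 and -0.28, still past the test (adjusted p = 0.0029 and 0.0433).

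Of the 3 genes of sister chromatid cohesion and its release, 2 fell. Cdca5, which encodes the cohesin protector sororin, read 414 in WT, then 222 and 225 in Rptor-null 1 and 2 (-0.85 ± 0.14, adjusted p = 0.00978). Espl1, which encodes the cohesin-cutting protease separase, read 140 in WT, then 82.0 and 95.8 (-0.58 ± 0.17, adjusted p = 0.0602) and did not pass. Pttg1, which encodes the separase inhibitor securin, read 6627 in WT, then 5490 and 5065, and fell. The call of Pttg1 held under only 4 of the 9 other settings and was lost, among others, after quantile normalization (adjusted p = 0.103). Its decrease turned when scaled on T cell markers (0.18). A second Pttg1 probe set read 870 in WT, then 511 and 543, and the third read 225 in WT, then 229 and 236.

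Of the 4 regulators, 2 fell. Cdca3, a trigger of mitotic entry, read 389 in WT, then 177 and 169 in Rptor-null 1 and 2 (-1.10 ± 0.14, adjusted p = 0.00537). Melk, a mitotic kinase, read 168 in WT, then 103 and 80.0 (-0.78 ± 0.19, adjusted p = 0.0314). Cdca3 no longer passed with its probe sets averaged (adjusted p = 0.058), and that of Melk after quantile normalization (adjusted p = 0.0618). Cks2, a small CDK partner, read 2241 in WT, then 1830 and 1853 (-0.28 ± 0.09, adjusted p = 0.0827) and did not pass, while a second probe set read 2352 in WT, then 1597 and 1665. With the mean of both probe sets Cks2 passed (adjusted p = 0.0253), but not after quantile normalization (adjusted p = 0.251). Foxm1 read 166 in WT, then 175 and 190 (0.13 ± 0.15, adjusted p = 0.644). Its other kept probe sets read 75.8 in WT, then 66.0 and 85.3, and 40.7 in WT, then 35.4 and 37.4.

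**Figure D2:**
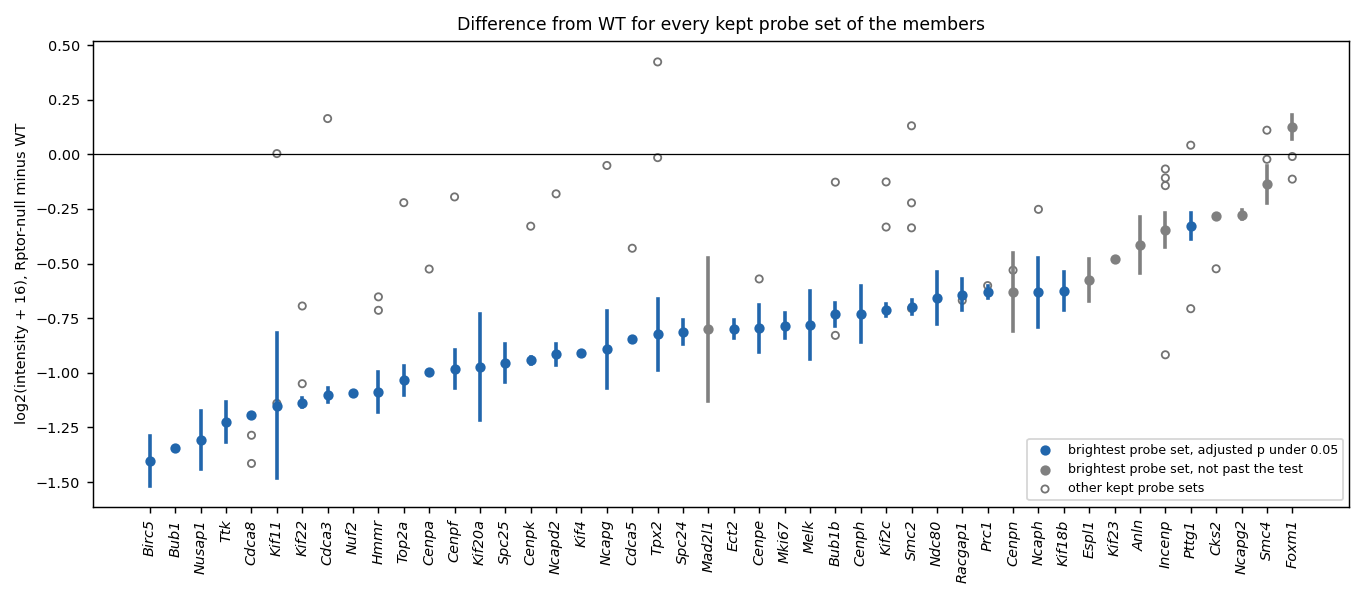
Rptor-null minus WT on the log2(intensity + 16) scale for all 88 kept probe sets, with genes in order of the brightest probe set. Filled points are the brightest probe set of a gene, blue where it passed the test and grey where it did not, with a bar that joins the values of the 2 Rptor-null arrays, and open circles are the other kept probe sets. Of the open circles, many lie above the filled point of their gene, as for Tpx2, Cdca3 and Smc2.

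The probe sets of a gene did not always move together. Of the 26 members with 2 or more kept probe sets, 17 had every kept probe set below WT in both Rptor-null arrays. The other 9 were Kif11, Kif2c, Tpx2, Ncapg, Smc2, Smc4, Pttg1, Foxm1 and Cdca3. Over the 88 kept probe sets, 75 (85.2%) lay below WT in both arrays, against 47.1% of all probe sets tested. When every probe set was tested on its own, 35 of the 88 were called lower and 0 higher (limma; 57 lower and 0 higher at an unadjusted p under 0.05), against 5.92% and 2.23% of all probe sets tested. Without a variance trend 0 were called lower (55 at an unadjusted p under 0.05).

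The 2 Rptor-null arrays also differed in these genes. Rptor-null 2 read below Rptor-null 1 in 35 of 46 members (76.1%), against 42.3% of all genes tested. The gap was widest in Kif11 and Mad2l1, described above. Most members thus lay lower in the pool Rptor-null 2 than in the pool Rptor-null 1. The ratio of 3' to 5' signal of beta-actin and of Gapdh was also higher in Rptor-null 2, and its part was not tested.

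**Figure D3:**
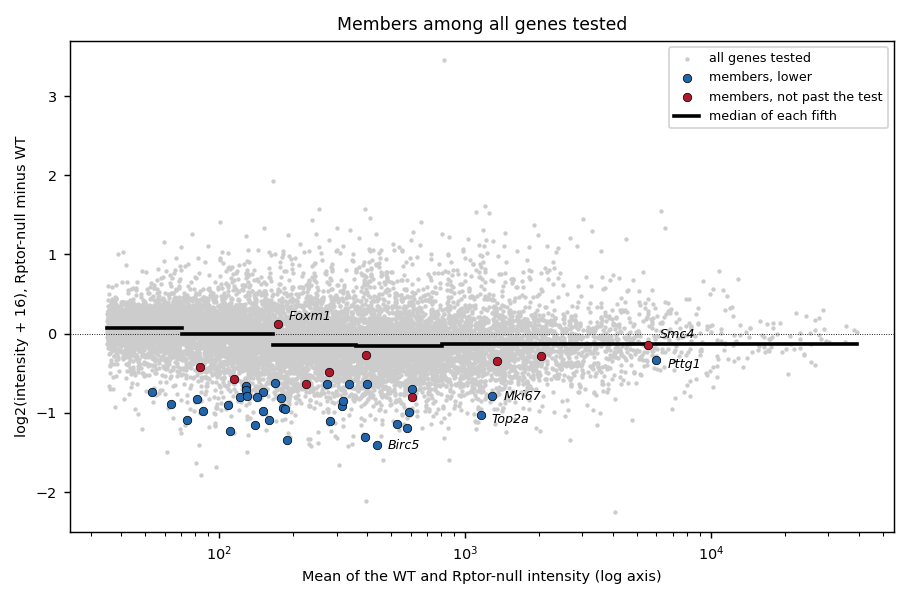
Rptor-null minus WT on the log2(intensity + 16) scale against the mean of the WT and Rptor-null intensity (log axis) for the 12721 genes tested (grey), with the 36 members that fell in blue, the 10 that did not pass in red and the median of each of 5 equal classes of genes by brightness as a black bar. The members lie below the bar of their class except Foxm1, with Smc4 next to it.

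The brightness of a probe set went with its difference over the whole array, so members were also set beside genes of like brightness, in 5 classes of equal size. The median log2 difference of all genes was 0.078 in the dimmest class, between -0.0030 and -0.14 in the next 2, and -0.16 and -0.12 in the 2 brightest. After subtraction of the median of its class, the median of the 46 members was -0.78, and 45 of the 46 lay below the median of their class. In the brightest class, which held Incenp, Smc4, Top2a, Mki67, Pttg1 and Cks2, the median of these 6 was -0.34, and in the other 4 classes the median of members was between -0.81 and -0.99.

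Other genes of the same structures were counted from lists that hold none of the 46. Over all genes tested, 11.1% were called lower and 3.93% higher. Of 32 other kinetochore and checkpoint genes tested, 11 fell, 0 rose and 21 did not pass (limma; 0 higher at an unadjusted p under 0.05), with a median of -0.45. Ska1, of the complex that couples kinetochores to microtubule ends, read 106 in WT, then 43.7 and 34.1, and Spdl1, which recruits dynein, read 134 in WT, then 62.3 and 62.3. Of 28 other spindle and cytokinesis genes 10 fell and 0 rose (0 at an unadjusted p under 0.05), with a median of -0.40, led by Cep55, a protein of the final cut between daughter cells, from 434 in WT to 184 and 148. Aspm, a spindle pole protein, read 254 in WT, then 136 and 124.

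Of 12 condensin II and cohesin genes, 2 fell and 0 rose (limma; 2 higher at an unadjusted p under 0.05), with a median of -0.098. The 2 were the cohesin release factor Wapl (1326 in WT, 921 and 979) and the cohesin ATPase Smc1a (1768 in WT, 1406 and 1359). This share of 16.7% is near that of all genes tested (11.1%) and under that of the brightest class (22.2%). Of 8 tubulin genes, Tubb4b fell from 1494 in WT to 744 and 785 and Tubb6 rose from 107 in WT to 209 and 253. Their share of lower calls, 12.5%, is also near that of all genes tested. For comparison, 21 of 27 DNA replication genes and 12 of 24 mitotic cyclin, kinase and anaphase-promoting genes were lower, with medians of -0.65 and -0.56. The differences between these lists and the 46 members were not tested.

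**Figure D4:**
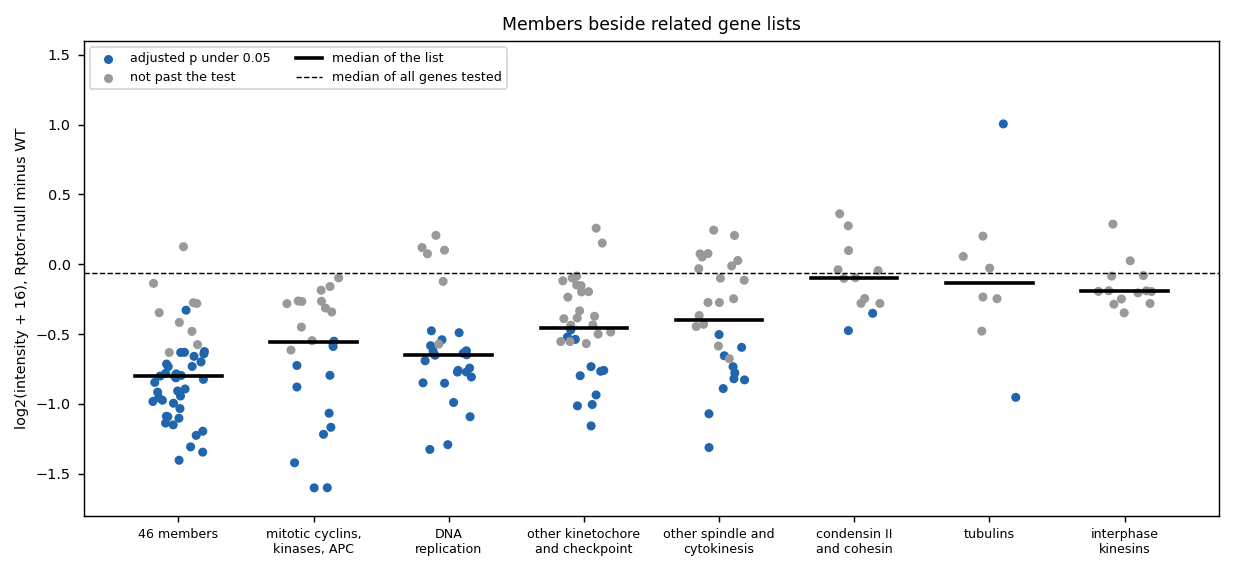
Rptor-null minus WT on the log2(intensity + 16) scale for the 46 members and 7 related gene lists, with 1 point per gene, blue where it passed the test and grey where it did not, a black bar at the median of the list and a dashed line at the median of all genes tested. The bar of the members lies at -0.80 and that of the interphase kinesins at -0.19.

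Markers of the sorted cells and of other cells moved between the same arrays. For comparison with the counts below, 11.1% of all genes tested were called lower and 3.93% higher. The summed intensity of 9 measured T cell markers was 41165 in WT, then 27231 and 26926 in Rptor-null 1 and 2, with 5 of 9 lower and 0 higher. The fall was not uniform: Cd3e (-0.23), Cd4 (-0.25), Cd28 (-0.18) and Zap70 (-0.13) did not pass. That of 8 regulatory and follicular T cell markers was 21914 in WT, then 13229 and 11380, with 5 of 8 lower. The median log2 difference was -0.64 for the T cell markers and -0.94 for the regulatory and follicular ones, beside -0.80 for the 46 members. These medians were not compared by a test. Macrophage and monocyte markers were higher in 8 of 12 cases, summing to 35098 in WT, then 48461 and 55007, and basophil and mast cell markers in 4 of 7, summing to 1188 in WT, then 1998 and 2344. The part of these shifts in the lower mitotic genes was not tested.

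Other spleen cells, some of which cycle, were followed by their own markers. Of 7 tested B cell markers 0 were lower and 1, Bank1, was higher, with sums over 8 measured markers of 1694 in WT, then 1630 and 1906. Of 8 measured germinal centre B cell and plasma cell markers, Rgs13, Gcsam and Mybl1 read at most 15.4 on any array, under the filter, and Mzb1 was lower, with sums of 8257 in WT, then 8051 and 8398. Of 6 tested erythroid precursor markers 0 were lower or higher, with sums over 7 of 544 in WT, then 600 and 573. In neutrophil markers 0 of 6 passed the test, with sums of 21131 in WT, then 19598 and 19918. In dendritic cell markers Cd209a, 1 of 5 tested, was lower, and in cytotoxic and NK markers Cd8b1, 1 of 8, was lower. Their part in the result was not tested.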

How the data were processed

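The deposited table holds intensity values of 45101 probe sets on a linear scale; the submitters' processing notes name MAS5, and the authors' background correction, scaling and summary method are not given in the sources used here. Names of probe sets came from the platform annotation: 34945 had 1 symbol, 932 several and 9160 none, beside 64 controls; only those with 1 symbol were used. Symbols of all lists were matched exactly. Probe sets with a mean of the group means at or below the 40th percentile (35.0) were left out, which kept 22376, and the brightest stood for a gene.

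log2(intensity + 16) was fitted over 12721 genes with limma 3.58.1 in R 4.3.3 (lmFit, eBayes with a trend; 1 residual and 6.39 prior degrees of freedom), two-sided, with Benjamini-Hochberg adjustment and a threshold of 0.05. A second fit took every kept probe set. The fit was tested on simulated data. Groups came from the sample titles; no batch was given.

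The members and lists were chosen with earlier results of these data known. Every member was named with its 3 values; fit statistics were given for the 2 members per role with the largest smaller-of-2 difference, for members that did not pass, and for Mki67 and Top2a. Genes of other lists were named among those with the largest such difference, apart from Ncapd3, Ncaph2 and members of marker lists, chosen after their values were seen. The other settings tried were 2 pseudocounts, 2 filters, 2 scalings, 2 choices of probe sets, no variance trend and each Rptor-null array left out; scaling on T cell markers was added after seeing the data.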

Additional observations from a re-analysis of the deposited data

How the results depend on the processing

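Scaling on T cell markers apart, there were 408 member results under 9 other settings of the processing with a test. Of these, 367 kept direction and side of the threshold, 30 lost the call, 11 gained it and 0 turned. Over the same settings the count of lower members ran from 28 after quantile normalization to 37 after median centring. Over all genes the split of lower to higher calls was 1411 to 500 as deposited, 701 to 525 after quantile normalization, 1377 to 1180 after median centring, which moved the median of all genes from -0.060 to 0.044, and 239 to 7982 after scaling on T cell markers, which moved it to 0.45. That last scaling, chosen after seeing the data, left 18 members lower and 2 higher, 20 member probe sets lower and 9 higher, 0 members 2-fold lower in both arrays and a median of -0.30; it turned Incenp (0.16), Kif23 (0.025), Anln (0.089), Ncapg2 (0.23), Smc4 (0.37), Pttg1 (0.18) and Cks2 (0.22). Of the member probe sets, 23 were lower without those ending in _x_at or _s_at, which leaves fewer to test, and 0 without a variance trend (limma; 55 at an unadjusted p under 0.05). The count of members 2-fold lower in both arrays moved from 8 to 5 with a pseudocount of 64 and to 12 with a pseudocount of 1, with medians of -0.62 and -0.89; with the mean of probe sets the median was -0.64. With 1 Rptor-null array left out there is no test: without Rptor-null 1 and Rptor-null 2 in turn, 14 and 10 members were 2-fold lower, and the median ran from -0.86 to -0.72. No paired analysis was possible because the WT group has 1 array. Signal over background limits the dim members: 6 of 46 fall under the 60th percentile filter, which keeps 40.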
